A study of Mus musculus with 32 samples.

Results

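Ppara, Cpt1a and Pdk4 are genes of the switch from carbohydrate to fat as fuel. They were looked up by gene name in the 4 organ tables of a mouse study of ketohexokinase (KHK), the enzyme that phosphorylates fructose. The tables hold 10055 different genes in all. All 3 genes were found, in 5 of the 12 possible combinations of gene and organ: Ppara in liver, jejunum and ileum, Cpt1a in liver, and Pdk4 in jejunum.

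Male mice deficient in Khk (Khk KO) were compared with male wild-type (WT) mice, with 4 libraries of polyadenylated RNA per genotype from liver, duodenum, jejunum and ileum, 32 libraries in all. The labels give no strain, age, diet or feeding state, do not say how Khk was deleted, and do not say which libraries came from the same mouse, so p-values measure the spread between libraries. A gene is listed for an organ if its unadjusted p in the authors' comparison was below 0.05. Presence in a table is therefore already a selection on the genotype difference, and the 7 combinations that are not listed (all 3 genes in duodenum, Cpt1a in jejunum and ileum, Pdk4 in liver and ileum) were not analysed here. The targeted gene, Khk, had a log2 fold change between -4.44 in duodenum and -3.18 in liver in the authors' deposited tables. The listed genes drew 7505439 to 14331517 reads per library in liver, 3053896 to 4325568 in jejunum and 6531593 to 9149003 in ileum. In liver WT replicate 1 stood apart from the other WT libraries and nearer to Khk KO in the following sum. The lipoprotein genes Apob and Apoa4 are the 2 of 6 enterocyte markers in the liver table. They summed to 109248 normalised counts in WT replicate 1, against 29025 to 47485 in the other WT libraries and 129463 to 144302 in Khk KO. In the authors' deposited liver table Apob was higher and Apoa4 lower in Khk KO, so the higher sum there is that of Apob. The liver values of Ppara and Cpt1a and the count of pathway genes called are given with and without WT replicate 1.

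PPAR alpha, the product of Ppara, is a nuclear receptor that binds fatty acids and, paired with a retinoid X receptor, switches on genes of fatty acid oxidation and ketone body synthesis, above all in the fasted liver. CPT1A, in the outer mitochondrial membrane, attaches fatty acids to carnitine for import into mitochondria and is inhibited by malonyl-CoA, the building block of fat synthesis. PDK4 phosphorylates and thereby inactivates the pyruvate dehydrogenase complex, which holds back glucose carbon from the citric acid cycle. Cpt1a and Pdk4 are both known targets of PPAR alpha.

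The sequences upstream of the 3 start sites are shown so that the 3 genes can be compared where the tables list them together, Ppara with Cpt1a in liver and Ppara with Pdk4 in jejunum. They are taken from RefSeq promoter windows of 300 bases (250 before and 50 after the start, build GRCm38.p6), which were found for all 3 genes. Only the longest stretch of each window that lies outside every annotated GENCODE M21 exon is printed, 5′ to 3′ on the gene's strand. Capitals mark matches, on either strand, to AGGTCA (the half-site bound by PPAR alpha and other nuclear receptors), CCAAT (the CCAAT box), GGGCGG (the GC box) or CACGTG (an E-box).
Ppara: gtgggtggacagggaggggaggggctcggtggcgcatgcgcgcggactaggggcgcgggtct
Cpt1a: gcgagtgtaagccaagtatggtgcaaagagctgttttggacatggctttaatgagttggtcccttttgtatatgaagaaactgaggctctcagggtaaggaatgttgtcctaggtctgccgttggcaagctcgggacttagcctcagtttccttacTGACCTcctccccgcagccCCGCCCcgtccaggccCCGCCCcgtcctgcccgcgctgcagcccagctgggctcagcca
Pdk4: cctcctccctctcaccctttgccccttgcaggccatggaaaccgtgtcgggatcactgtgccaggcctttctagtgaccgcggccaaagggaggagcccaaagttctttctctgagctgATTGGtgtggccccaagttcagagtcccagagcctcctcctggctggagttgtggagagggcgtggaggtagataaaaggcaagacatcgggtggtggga

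The Ppara stretch (chr15:85735714-85735775, plus strand) is 62 bases long, has a GC content of 75.8% and holds no match. The full Ppara window holds 2 GC boxes, which lie outside the printed stretch. The Cpt1a stretch (chr19:3323051-3323284, plus strand) holds the nuclear receptor half-site, read on the other strand as TGACCT, and a pair of GC boxes. The full Cpt1a window holds 3 GC boxes and also a CCAAT box, which the printed stretch lacks. The Pdk4 stretch (chr6:5496310-5496528, minus strand) holds a CCAAT box read on the other strand. The stretches of Ppara and Cpt1a are intronic for annotated transcripts that start further upstream, and that of Pdk4 lies outside its transcripts. Of 32851 full promoter windows, 16.3% hold AGGTCA, 37.4% CCAAT, 35.7% GGGCGG and 7.15% CACGTG on either strand. These shares are for full windows and not for the shorter printed stretches, which also differ in length between the genes. No printed matches overlap each other. Binding to these sites was not measured.

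Ppara (ENSMUSG00000022383) lies on chromosome 15, 85734983 to 85802819, plus strand, in the coordinates of the tables, which the submitters' processing notes place on GRCm38. No other annotated gene overlaps it, and none overlaps Cpt1a or Pdk4. In jejunum Khk KO held 2.31 times the WT mean, the highest ratio of its 3 organs, although the difference between organs was not tested. The 4 Khk KO libraries of jejunum had 509.7, 619, 872 and 916 normalised counts, that is read counts divided by the authors' size factor of the library. The 4 WT libraries had 153, 398, 379.9 and 334 normalised counts. Every Khk KO library lay above every WT library, and WT replicate 1 lay furthest below the rest. Among genes of the jejunum table, 33.0% had Khk KO libraries wholly above WT, so separation of this kind was common there.

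The means in jejunum were 729 ± 196 normalised counts in Khk KO and 316 ± 112 in WT (SD, n = 4), from raw counts of 137 to 965 reads per library. For this gene the authors' deposited table gave a log2 fold change of 1.21 with an adjusted p of 0.0202. It was among the 0.536% of adjusted genes that this table called higher in jejunum at the 0.05 threshold used throughout. The edgeR quasi-likelihood fit gave 1.18 ± 0.32 (SE) with an adjusted p of 0.237, which does not pass. An exact permutation test over the 8 libraries (two-sided) gave p = 0.0286, the smallest value that 4 against 4 libraries allow. Without WT replicate 1 the edgeR log2 fold change was 0.92.

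In liver, where Ppara is most abundant among the organs that list it, the Khk KO libraries had 3522, 3528, 3869.8 and 3453 normalised counts. The WT libraries had 3671, 2339, 1699 and 2334 normalised counts. The genotypes overlapped through WT replicate 1 alone, which stood above 3 of the 4 Khk KO libraries, while the other 3 WT libraries were below all of them. The means were 3593 ± 187 in Khk KO and 2511 ± 829.7 in WT (SD, n = 4), a ratio of 1.43, and the spread was 5.22% of the mean in Khk KO against 33.0% in WT. The authors' deposited table gave a log2 fold change of 0.52 with an adjusted p of 0.0522. The edgeR quasi-likelihood fit gave 0.54 ± 0.21 (SE) with an adjusted p of 0.108, and 0.75 with an adjusted p of 0.00155 without WT replicate 1. As WT replicate 1 was the highest WT library, leaving it out widens the difference, and no other single omission passed. Without WT replicate 3, the lowest, edgeR gave 0.37 with an adjusted p of 0.184. The exact two-sided permutation test over the 8 libraries gave p = 0.114.

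Of the 3 organs that list Ppara, ileum had the lowest mean, although its WT range of FPKM overlapped that of jejunum. Its Khk KO libraries had 214, 254, 452 and 308 normalised counts. Its WT libraries had 140.5, 164, 253 and 254 normalised counts. The genotypes overlapped, since Khk KO replicate 1 lay between the low and the high pair of WT libraries, and 3 of the 4 Khk KO libraries lay above all WT libraries. The means were 307 ± 104 in Khk KO and 203 ± 59.0 in WT (SD, n = 4), a ratio of 1.51. The authors' deposited table gave a log2 fold change of 0.59 with an adjusted p of 0.135. The edgeR quasi-likelihood fit gave 0.58 ± 0.27 (SE) with an adjusted p of 0.197, and 0.35 without Khk KO replicate 3. The exact two-sided permutation test gave p = 0.114, the same value as for Ppara in liver, and does not pass.

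**Figure D1:**
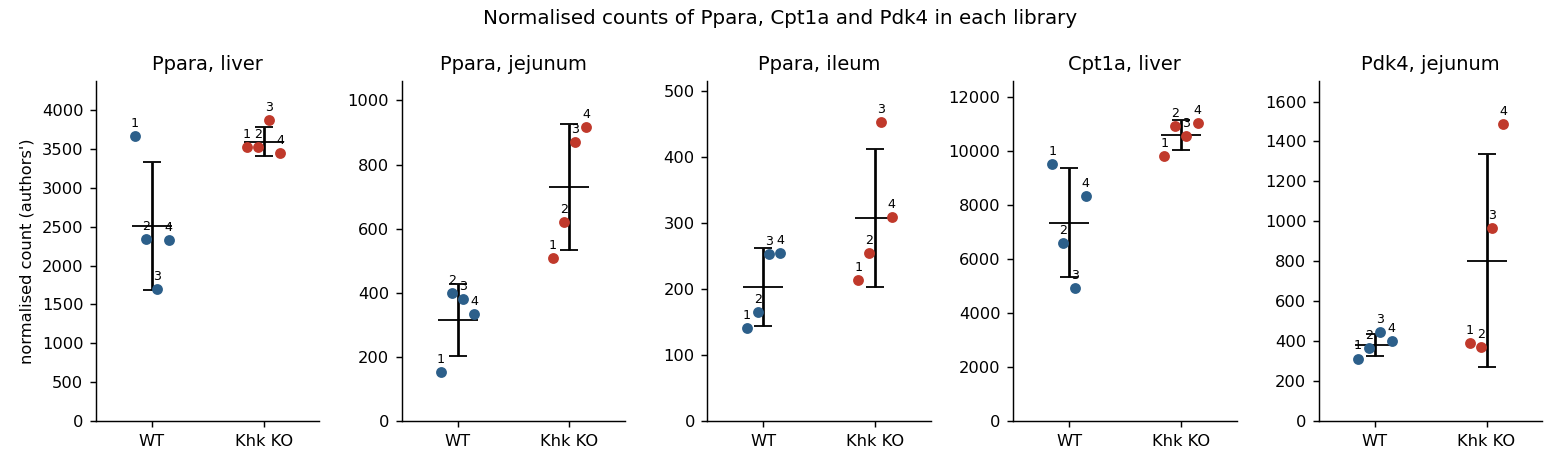
Normalised counts (linear axis from 0) of Ppara, Cpt1a and Pdk4 in the organs whose tables hold them. Points are libraries labelled with their replicate number, horizontal bars are means and vertical bars are SDs of 4 libraries. Genotypes are fully separated for Ppara in jejunum and Cpt1a in liver, WT replicate 1 is the highest WT library for both liver genes, and Khk KO replicates 3 and 4 carry the Pdk4 difference in jejunum.

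Cpt1a (ENSMUSG00000024900, chromosome 19, 3323301 to 3385732, plus strand) was listed in liver only. Its Khk KO libraries had 9819, 10919.8, 10570.5 and 11054 normalised counts. Its WT libraries had 9522, 6609.9, 4932 and 8343 normalised counts. The genotypes did not overlap, although WT replicate 1 came within a small margin of the lowest Khk KO library, and such separation with Khk KO on top was seen for 34.3% of the genes of the liver table. The means were 10591 ± 553 in Khk KO and 7352 ± 2008 in WT (SD, n = 4), a ratio of 1.44. As for Ppara, the Khk KO libraries were tight, with a spread of 5.22% of the mean against 27.3% in WT.

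For Cpt1a the authors' deposited table gave a log2 fold change of 0.53 with an adjusted p of 0.0300, a call shared in this direction by 12.5% of the genes adjusted over in liver. The edgeR quasi-likelihood fit gave 0.55 ± 0.19 (SE) with an adjusted p of 0.0701, which does not pass, and 0.66 with an adjusted p of 0.00713 without WT replicate 1. Here too that library was the highest WT one, and no other single omission passed. Without WT replicate 3 edgeR gave 0.38 with an adjusted p of 0.0750. The exact two-sided permutation test gave p = 0.0286, the smallest value possible. The WT libraries ranked alike for both liver genes at their ends: WT replicate 1 was the highest and WT replicate 3 the lowest for Ppara and for Cpt1a.

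Pdk4 (ENSMUSG00000019577, chromosome 6, 5483351 to 5496309, minus strand) was listed in jejunum only. Its Khk KO libraries had 389.8, 369, 965 and 1487 normalised counts. Its WT libraries had 313, 367, 447 and 399 normalised counts. Khk KO replicates 3 and 4 stood above all WT libraries, and Khk KO replicates 1 and 2 lay inside the WT range. The means were 803 ± 533 in Khk KO and 381 ± 56.3 in WT (SD, n = 4), with a spread of 66.5% of the mean in Khk KO and 14.8% in WT. The ratio of the means was 2.10.

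For Pdk4 the authors' deposited table gave a log2 fold change of 1.07 with an adjusted p of 0.134. The edgeR quasi-likelihood fit gave 1.05 ± 0.41 (SE) with an adjusted p of 0.242, and 0.60 without Khk KO replicate 4. The exact two-sided permutation test gave p = 0.257. Khk KO replicates 3 and 4 were also the Khk KO libraries with the most Ppara in jejunum. Markers of fat and muscle, tissues rich in Pdk4, were followed in the same libraries. Of 5 adipocyte markers 4 were in the jejunum table, none of them at 0 reads in any library, and they summed to 291 to 559 normalised counts in Khk KO and 311 to 2852 in WT. Khk KO replicates 3 and 4 had sums of 358 and 291, the lowest of their group. The 4 of 6 smooth muscle markers in the table, none at 0 reads, summed to 7709 to 11341 in Khk KO and 9428 to 22433 in WT. For 2 of 4 skeletal muscle markers the sums were 103 to 156 in Khk KO and 261 to 468 in WT. The adipocyte and smooth muscle sums were both highest in WT replicate 1, the library with the least Ppara and the least Pdk4, and their part in the Ppara and Pdk4 results was not tested. In bulk tissue, fewer cells of a type and less RNA per cell cannot be told apart.

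Levels were set across organs with the deposited FPKM values (fragments scaled to gene length and a library total), with no test because the organ tables were normalised separately. In WT, Ppara had 56.1 ± 17.6 FPKM in liver, 4.84 ± 1.66 in jejunum and 2.54 ± 0.759 in ileum (SD, n = 4). The liver stood apart from both gut segments. The WT jejunum libraries, at 2.41 to 6.07 FPKM, overlapped the WT ileum libraries, at 1.70 to 3.21. In Khk KO the order was the same, with 79.4 ± 4.75 FPKM in liver, 11.2 ± 3.05 in jejunum and 3.84 ± 1.29 in ileum (SD, n = 4). There the jejunum libraries, at 7.79 to 14.1 FPKM, lay above all ileum libraries, at 2.69 to 5.63. Per length, Cpt1a was above Ppara in liver, with 147 ± 38.2 FPKM in WT and 209 ± 11.1 in Khk KO (SD, n = 4). Pdk4 and Ppara were at similar levels in jejunum, where Pdk4 had 6.39 ± 0.847 FPKM in WT and 13.5 ± 8.99 in Khk KO (SD, n = 4).

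**Figure D2:**
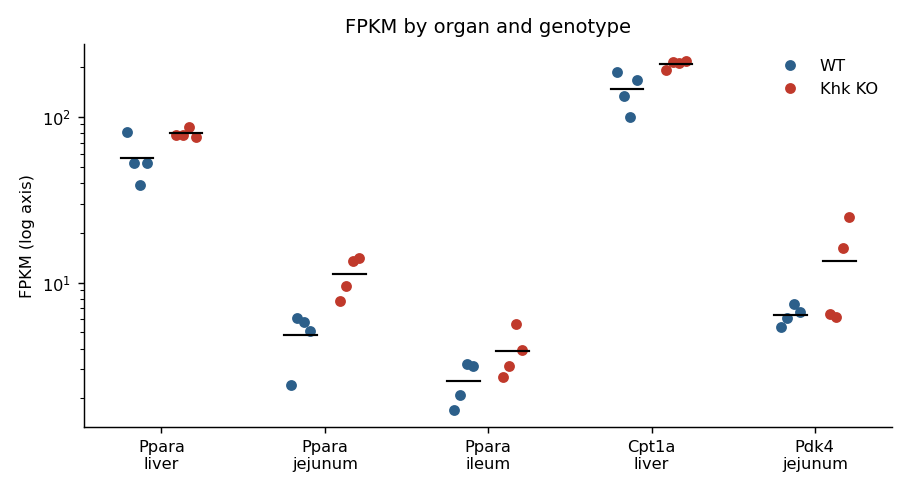
FPKM on a log axis for each gene and organ. Points are libraries, blue for WT and red for Khk KO, and horizontal lines are means of 4. Of the organs that list it, Ppara is highest in liver, between 38.6 and 86.3 FPKM, and does not exceed 14.1 in jejunum and ileum.

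Fold change followed gene length in these tables, so each gene was set beside its 200 nearest neighbours in length, taken from protein-coding genes whose mean normalised count was 50 or more. In the authors' deposited liver table the median log2 fold change was -0.55 for protein-coding genes of 2000 to 4000 bases and 0.50 for those of 4000 to 8000 bases. Ppara (3836 bases) and Cpt1a (4300 bases) sit near that turning point, and Pdk4 has 3511 bases. Around Ppara in liver (3632 to 4051 bases) the median log2 fold change in the authors' deposited table was -0.44, 32.5% of the genes were higher in Khk KO, and 18.5% lay above Ppara. Around Cpt1a (4063 to 4553 bases) the median was -0.40 in the authors' deposited table, 34.0% were higher and 19.0% lay above Cpt1a.

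In jejunum the members stood further from genes of their length. Around Ppara (3200 to 4595 bases) the median in the authors' deposited table was -0.42, 28.5% of the genes were higher in Khk KO and 2 of 200 lay above Ppara. Around Pdk4 (2961 to 4174 bases) the median was -0.41, 24.0% were higher and again 2 of 200 lay above it. Without the minimum mean these shares became 5.5% and 7.5%, as more genes of few reads entered. In ileum, around Ppara (3578 to 4113 bases), the median was -0.40 in the authors' deposited table and 13.0% lay above it. After subtraction of each library's length trend (the length-adjusted fit), the log2 fold changes in edgeR were 0.68 for Ppara in liver, 1.34 in jejunum and 0.73 in ileum, 0.57 for Cpt1a and 1.30 for Pdk4. Their adjusted p-values in edgeR's quasi-likelihood test were 0.107, 0.309, 0.279, 0.0949 and 0.506, so none passed.

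**Figure D3:**
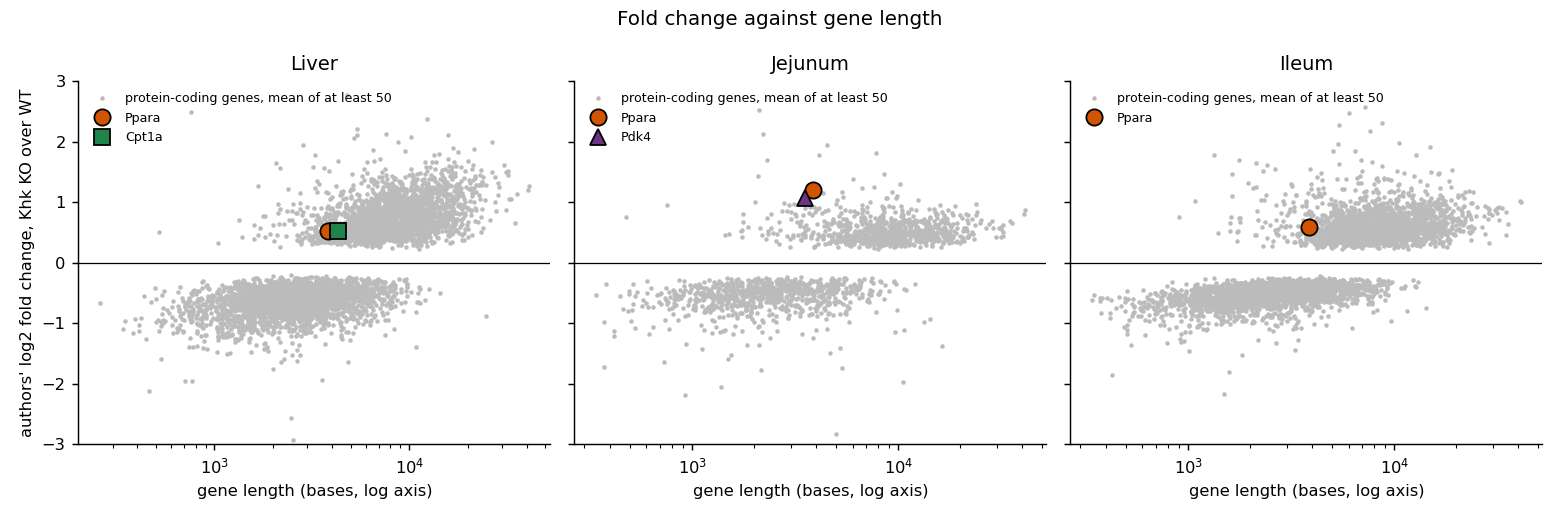
The authors' log2 fold change (Khk KO over WT) against gene length in bases on a log axis, for protein-coding genes whose mean normalised count was 50 or more (grey), with 3 genes in liver, 2 in jejunum and 4 in ileum beyond the axis limits of -3 and 3. Most long genes lie above 0 and most short ones below, and Ppara, Cpt1a and Pdk4 are above 0 at lengths where most neighbours are below it.

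The rest of the pathway was described with a list of 124 genes in 8 roles that contains the 3 members. Of these, the liver table held 55, with 16 called higher and 29 lower in the authors' deposited table. That is 12.9% and 23.4% of the list, where the liver table called 12.5% of all genes higher and 11.4% lower. The ileum table held 38, with 7 called higher and 18 lower in the authors' deposited table, 5.65% and 14.5% of the list against 8.76% and 6.86% of all genes. Calls in either direction made up 23.9% of all genes in liver and 15.6% in ileum. Among the genes present in a table these shares were 68.5% and 48.3%, against which the counts of called genes among those present in each role below are to be read. In jejunum 21 were in the table and Ppara was the only call, where 0.759% of all genes were called in either direction. In duodenum 10 were in the table and Acot1 was the only call (0.224% of all genes called, 0.0961% lower). Acot1, an acyl-CoA thioesterase gene and PPAR alpha target, had 131 ± 34.1 normalised counts in Khk KO and 258 ± 40.8 in WT (SD, n = 4), and an adjusted p of 0.00564 in the authors' deposited table. Acot1 has close paralogs, so its reads may be split or shared, and its adjusted p in edgeR was 0.958. The edgeR quasi-likelihood fit called 30 of the list in liver (49 without WT replicate 1), 24 in ileum and 0 in the other 2 organs, where it called 14.7%, 13.9%, 0.0101% (jejunum) and 0.0064% (duodenum) of all genes. In jejunum 20 of the 21 and in duodenum 8 of the 10 had an unadjusted p below 0.05 in that edgeR fit, and DESeq2 called 5 and 1, where it called 2.65% and 0.192% of all genes. The first of these counts says little, since the tables hold only genes with such a p in the authors' test of the same libraries. The median log2 fold change of the list in the authors' deposited tables was -0.38 in liver, -0.30 in jejunum and -0.43 in ileum, where the medians of all listed genes were 0.42, 0.35 and 0.30. In the length-adjusted fit the medians of the list were nearer to 0, at -0.03, -0.06 and -0.12. Those of all fitted genes were 0.0009, -0.0081 and -0.011.

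**Figure D4:**
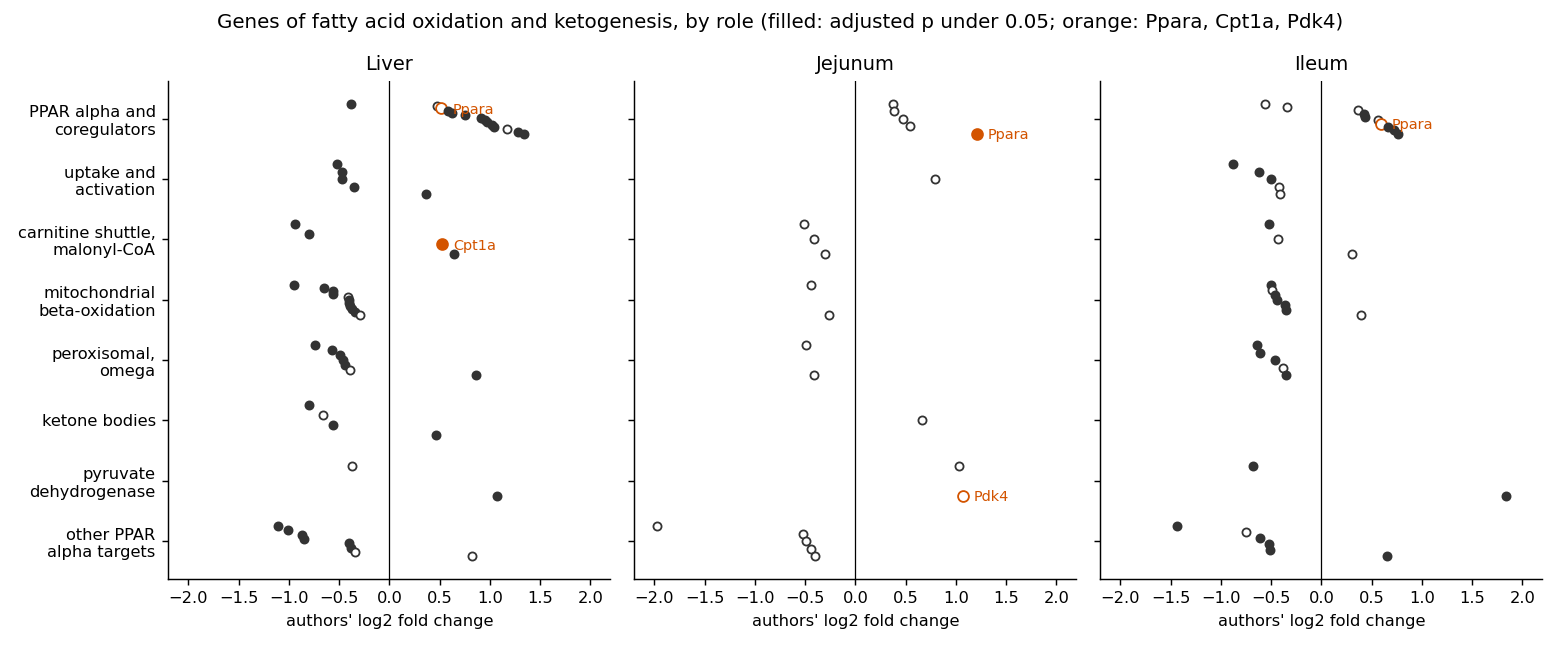
Authors' log2 fold change (Khk KO over WT) of the list genes present in each table, in rows by role. Filled points have an adjusted p under 0.05 in the authors' tables, and Ppara, Cpt1a and Pdk4 are orange. Regulators lie mostly to the right of 0 and the enzymes of oxidation to the left, with Cpt1a to the right in liver.

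Ppara and its partners and coregulators, 16 genes of the list with Ppara itself counted, were mostly higher. The liver table held 14 of these 16, of which 10 were called higher and 1 lower in the authors' deposited table, and 4 higher and 1 lower in edgeR. Crebbp, which encodes a histone acetyltransferase that assists many nuclear receptors, had 798 ± 51.4 normalised counts in Khk KO and 315 ± 120.2 in WT (SD, n = 4). Ep300, its close relative, had 989.9 ± 87.9 in Khk KO and 409 ± 229 in WT (SD, n = 4). Ppargc1a, the coactivator PGC-1 alpha, had 212 ± 74.3 in Khk KO and 104 ± 15.4 in WT (SD, n = 4). Each of these 3 was among the edgeR calls, with log2 fold changes of 1.36 ± 0.24, 1.30 ± 0.35 and 1.06 ± 0.25 (SE). The genes of this role are long, with a median of 8709 bases in the liver table against 3858 for all its genes. In the length-adjusted fit Crebbp alone passed, at 0.47, and the median of the role went from 0.93 in the authors' deposited table to 0.31.

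The ileum table held 10 of the 16, of which 5 were called higher and 0 lower in the authors' deposited table. The edgeR counts were also 5 and 0, but for a different set. Med1 was called only in the authors' deposited table and Ppargc1a only in edgeR. Ncor1, a corepressor of nuclear receptors, had 3984 ± 563 normalised counts in Khk KO and 2353 ± 456 in WT (SD, n = 4). Nrip1, a further corepressor, had 1468 ± 219 in Khk KO and 926 ± 80.1 in WT (SD, n = 4). Ep300 had 2401 ± 323 in Khk KO and 1457 ± 203 in WT (SD, n = 4). The genes named here are thus a coactivator and corepressors, and none of the role passed in the length-adjusted fit.

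The carnitine shuttle was split in direction in liver. Next to Cpt1a, 3 other genes of this role's 11 were in the liver table, and the authors' deposited table called each of them. Slc25a20, the carrier that brings acylcarnitine across the inner membrane, had 1928 ± 249.9 normalised counts in Khk KO and 3361 ± 891 in WT (SD, n = 4). Mlycd, which degrades the CPT1 inhibitor malonyl-CoA, had 1525 ± 184 in Khk KO and 2927 ± 559.9 in WT (SD, n = 4). The edgeR log2 fold changes were -0.77 ± 0.18 and -0.91 ± 0.16 (SE), and both genes kept an adjusted p below the threshold in the length-adjusted fit, at -0.92 and -0.52. Acaca, which makes malonyl-CoA, was higher, with 2122 ± 274 in Khk KO and 1362 ± 279 in WT (SD, n = 4) and an edgeR log2 fold change of 0.66 ± 0.17 (SE), but its sign turned in the length-adjusted fit, to -0.42. So the entry enzyme was higher while the inner carrier was lower. In ileum Cpt2, the inner-membrane partner of CPT1, had 1418 ± 254 in Khk KO and 1918 ± 493 in WT (SD, n = 4), and its adjusted p of 0.125 in the authors' deposited table did not pass, with genotypes that overlapped and a length-adjusted log2 fold change of 0.02. Slc25a20 and Acaca were chosen after their values were seen, as were Hadh and Echs1 below.

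The genes of mitochondrial beta-oxidation that were called were all called lower in Khk KO. The liver table held 11 of 18, all 11 with lower means in Khk KO, and 9 were called in the authors' deposited table and 6 in edgeR. Etfb, a subunit of the flavoprotein that takes electrons from acyl-CoA dehydrogenases, had 369 ± 39.3 normalised counts in Khk KO and 713 ± 249.96 in WT (SD, n = 4). The ileum table held 7, of which 5 were called lower and 0 higher in the authors' deposited table, while Acadsb, named here as the exception in direction, had 0.39 there and did not pass. The genes of this role in the liver table are short, with a median of 2269 bases, and their median, which was -0.41 (log2 fold change) in the authors' deposited table, became -0.13 in the length-adjusted fit, in which 3 passed. In ileum it went from -0.44 in the authors' deposited table to -0.0033, and 3 passed. That fit called 4.31% of all genes in liver and 2.97% in ileum. Hadh and Echs1, enzymes of the hydration and dehydrogenation steps, passed in that fit in both organs. Hadh was at -0.71 in liver and -0.59 in ileum, and Echs1 at -1.29 and -0.85. Their gene lengths in the tables are 4977 and 8286 bases, and without that adjustment edgeR gave Hadh -0.53 and -0.49, and Echs1 -0.53 and -0.35. The remaining genes that passed were Hadhb in liver (6595 bases) and Hadha in ileum (8730 bases). Thus only longer genes of this role passed, and the adjustment itself enlarged their falls.

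Peroxisomal and omega oxidation followed the same direction. Of 7 genes present in liver 5 were called lower and 1 higher in the authors' deposited table, and of 5 present in ileum 4 were called lower. The median of the role was near 0 in the length-adjusted fit, at -0.03 in liver and 0.01 in ileum. The only genes of the role to pass there were Acaa1a, lower in liver (-0.45) and ileum (-0.57), and Cyp4a31, higher in liver (1.32). Ech1, an auxiliary enzyme for unsaturated fatty acids, had 1887 ± 142 normalised counts in Khk KO and 2941 ± 632 in WT (SD, n = 4) in ileum, and its length-adjusted value of -0.18 did not pass. For fatty acid uptake and activation, 5 genes were present in liver, 4 called lower and 1 higher in the authors' deposited table. Of 5 present in ileum, 3 were called lower in the authors' deposited table. The liver median of this role turned from -0.47 in the authors' deposited table to 0.16 in the length-adjusted fit. Acsl5 (-0.58) and Acsm5 (0.56) passed in that fit in liver, and no gene of the role passed in ileum. Among the ileum calls was Fabp2, the intestinal fatty acid binding protein, with 17219 ± 2737 in Khk KO and 31640.4 ± 9674 in WT (SD, n = 4) in ileum. Its length-adjusted value of -0.26 did not pass (adjusted p 0.65 in edgeR). WT replicate 1 stood apart in ileum for Fabp2, with 45927 normalised counts against 25326 to 29234 in the other WT libraries, for Ech1 (3845 against 2379.7 to 2835) and for Cpt2 (2649 against 1594 to 1771).

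Ketone body genes were few in the tables. In liver 2 of the 9 genes of this role were called lower and 1 higher in the authors' deposited table, and none passed in the length-adjusted fit. The ileum table held none of them.

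Of the other genes of pyruvate dehydrogenase control, Pdpr was called in liver and ileum and Pdk2 in ileum in the authors' deposited tables. Pdpr, the regulatory subunit of the phosphatase that reverses the action of PDK enzymes, had 488, 393, 523 and 493 normalised counts in the Khk KO libraries of ileum and 119, 96.1, 129 and 187 in WT. The genotypes were far apart, and the edgeR log2 fold change was 1.83 ± 0.21 (SE) with an adjusted p of 0.00217. In liver Pdpr had 603 ± 50.1 in Khk KO and 288 ± 89.3 in WT (SD, n = 4), with 1.09 ± 0.21 (SE) in edgeR. Its length-adjusted values, 1.74 in ileum and 0.93 in liver, passed as well. In jejunum it had 286 ± 67.8 in Khk KO and 140 ± 61.6 in WT (SD, n = 4), with an adjusted p of 0.131 in the authors' deposited table. Pdk2, another kinase of the complex, was lower in ileum, with 1015 ± 141 in Khk KO and 1622 ± 208 in WT (SD, n = 4) and an edgeR log2 fold change of -0.67 ± 0.11 (SE, adjusted p 0.00766). Its length-adjusted value of -0.37 did not pass. Pdk1 and Pdk3 were in no table.

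Other known targets of PPAR alpha had mostly lower values in Khk KO. Of 8 present in liver 6 were called lower and 0 higher in the authors' deposited table, and 4 lower in edgeR, a share of called genes close to that of the whole liver table. Cidec, a lipid droplet protein, had 101 ± 12.8 normalised counts in Khk KO and 216 ± 53.2 in WT (SD, n = 4). Plin5, which coats lipid droplets in oxidative cells, had 700.4 ± 215 in Khk KO and 1406 ± 310.4 in WT (SD, n = 4). Neither passed in the length-adjusted fit, at -0.49 and -0.42. Of 6 present in ileum 4 were called lower and 1 higher in the authors' deposited table. Angptl4, an inhibitor of lipoprotein lipase, had 108, 124, 270.3 and 135 normalised counts in the Khk KO libraries of ileum and 428, 469, 399 and 425 in WT. The genotypes did not overlap, as for 66.8% of the genes of the ileum table, and the edgeR log2 fold change was -1.45 ± 0.25 (SE) with an adjusted p of 0.00768. The length-adjusted value, -1.17, passed too. In liver Angptl4 had 2404 ± 396 in Khk KO and 3039 ± 302 in WT (SD, n = 4), with an adjusted p of 0.108 in the authors' deposited table. Fgf21, the hepatic hormone of fasting, was in no table.

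Marker genes were checked in the same tables. In liver 5 of 6 hepatocyte markers were present and summed to 288391 to 336034 normalised counts in Khk KO and 306281 to 441142 in WT. Their directions were mixed in the authors' deposited liver table, with Tat (0.70) and Cps1 (0.34) above 0 and Apoa1 (-0.78), Ttr (-0.49) and Serpina1c (-0.42) below. All 5 erythroid markers were called lower there by the authors' deposited table, and summed to 2967 to 3515 in Khk KO and 4584 to 10959 in WT, lowest among WT in replicate 1 and highest in replicate 3. In ileum 4 of 6 enterocyte markers were present and summed to 44101 to 60733 in Khk KO and 45254 to 82467 in WT. That sum pools Apob, at 0.62 in the authors' deposited table, with Alpi, Apoa4 and the list gene Fabp2, which had negative values. In jejunum 3 of 6 enterocyte markers were present, with 170505 to 207149 in Khk KO and 155320 to 249884 in WT. These were mixed too, with Sis (0.39) and Alpi (0.52) above 0 and Apoa4 (-0.54) below in the authors' deposited table. None of these markers was at 0 reads in a library. Cidec, Plin5 and Angptl4 are also expressed in fat, and adipocyte markers (3 of 5 present in liver, with 4 values at 0 reads) summed to 56.2 to 182 in Khk KO and 102 to 1029.9 in WT. In ileum 2 of 5 were present, with 282 to 675 in Khk KO and 323 to 2051 in WT. Ileum sums of hepatocyte, proximal enterocyte, pancreas, B and plasma cell and macrophage markers overlapped between genotypes as well. The ileum sums that follow did not overlap, which also held for 66.8% of single genes of the ileum table. Paneth cell markers (2 of 5 present) summed to 88402 to 116321 in Khk KO and 127307 to 153561 in WT, and goblet cell markers (3 of 5) to 63856 to 86007 and 86487 to 101174. Stem and crypt markers (2 of 4) summed to 5784 to 6609.6 in Khk KO and 3059 to 5239 in WT, and erythroid markers (3 of 5) to 177 to 363 and 376 to 737. The part of these markers in the results was not tested.

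**Figure D5:**
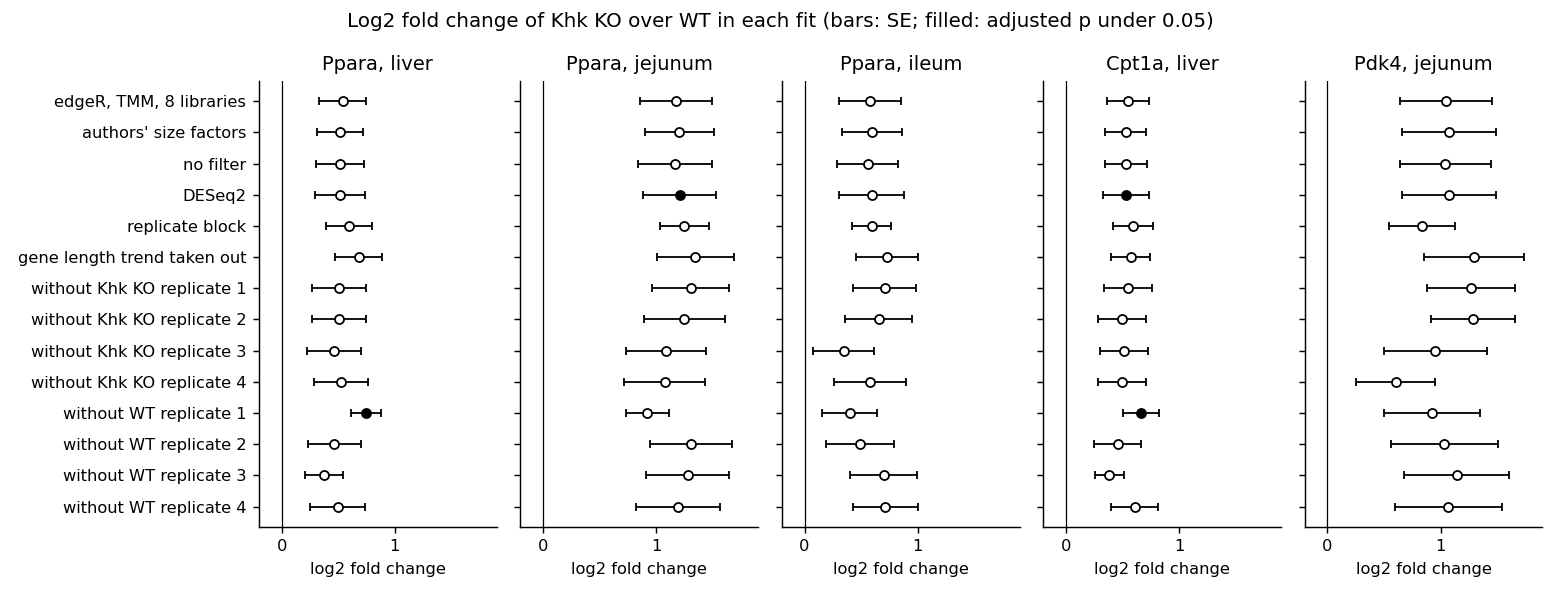
Genotype difference on the log2 scale, Khk KO relative to WT (points), with SE (bars) in each fit of the 5 combinations of gene and organ. Filled points have an adjusted p under 0.05. All points lie above 0, and the filled ones are the fits without WT replicate 1 for both liver genes, and DESeq2 for Ppara in jejunum and Cpt1a in liver.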

How the data were processed

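The read counts and normalised counts (a signal: the count divided by a size factor of the library), FPKM values, log2 fold changes, p-values and adjusted p-values are those the authors deposited, per the file headers. HISAT2 2.0.5 and GRCm38 appear in the submitters' processing notes. The counting tool, the strand setting and the authors' test are not given in the sources used here. By the ranks of the deposited p-values, the authors' adjustment covered 18225 (liver), 15615 (duodenum), 9881 (jejunum) and 16034 (ileum) genes. Genes with a deposited adjusted p of exactly 1 were read as not adjusted.

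All genes of each organ's table were fitted with edgeR 4.0.16 in R 4.3.3 (library totals implied by the FPKM values, TMM, filterByExpr, quasi-likelihood F test, each organ alone), and Benjamini-Hochberg adjustment used these numbers of genes. Because listed genes were selected on these libraries, p-values from any refit are conditional on that selection. The SE is the log2 fold change over the square root of F. The pipeline was tested on simulated counts. The length trend was a lowess curve (span 0.5) of each library's deviation from the organ mean, in log2 normalised count (pseudocount 1), on log2 gene length. It was fitted to genes with mean 10 or more and used as an offset with the authors' size factors. This also removes any genotype effect that follows length. DESeq2 1.42.0, the replicate block, no filter, the authors' size factors and leaving out each library were alternatives. Summaries used Python 3.11.15, numpy 2.4.6, pandas 2.3.3 and scipy 1.17.1. The members and lists were chosen with earlier results of these data known. Named genes are the members, up to 4 largest called rises and 4 largest called falls of the list per organ with mean 50 or more, and 8 genes set by name, some of which are not reported here.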

Additional observations from a re-analysis of the deposited data

How the results depend on the processing

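In the 5 combinations of gene and organ, all 70 alternative values kept the positive sign, and none reversed. Leaving out single libraries gave log2 fold changes of 0.37 to 0.75 for Ppara in liver, 0.92 to 1.31 in jejunum and 0.35 to 0.72 in ileum, 0.38 to 0.66 for Cpt1a and 0.60 to 1.29 for Pdk4. The threshold was passed without WT replicate 1 by both liver genes. It was passed in DESeq2 by Ppara in jejunum (1.21, adjusted p 0.0195) and Cpt1a (0.53, adjusted p 0.0420). With p adjusted over the fitted genes alone, at unchanged log2 fold changes, edgeR passed Ppara in liver (0.54, adjusted p 0.0340) and jejunum (1.18, adjusted p 0.0491), Cpt1a (0.55, adjusted p 0.0221) and Pdk4 (1.05, adjusted p 0.04998). All listed genes had an unadjusted p below 0.05 in the authors' test of these libraries. Passing in this last setting was therefore largely settled by the listing. The genes were selected on all 8 libraries, so the values of this paragraph are no measure of stability.

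The list genes called by the authors, 45 in liver and 25 in ileum, became 25 and 10 at a threshold of 0.01. Calls over all genes were not counted at 0.01, so 25 and 10 have no share to be read against. In edgeR the list counts were 30 and 24. From those edgeR counts, the length-adjusted fit, which also replaces TMM by the authors' size factors, gave 12 and 7. The single calls of duodenum and jejunum became 0 in edgeR, with the length trend taken out, and without WT replicate 1 (an alternative added after seeing the data, which gave 49 in liver and 29 in ileum), and that of jejunum also at 0.01. Over all genes, the edgeR calls were 2675 in liver and 2221 in ileum, 2821 and 1585 with the authors' size factors alone, 786 and 476 when the length trend was also taken out, and 9 to 4860 and 656 to 2912 when single libraries were left out (liver fewest without Khk KO replicate 2, ileum fewest without Khk KO replicate 1, both most without WT replicate 1). In duodenum the median of all genes was -0.18 with TMM and -0.33 with the authors' size factors.

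With the replicate block, edgeR gave 0.60 for Ppara in liver, 1.25 in jejunum and 0.59 in ileum, 0.59 for Cpt1a and 0.84 for Pdk4, none past the threshold, and 2156 calls in liver and 1202 in ileum. Same-numbered libraries did not deviate together in every pair (correlations of -0.29 to 0.31), and not every library correlated best with its own number, so the numbers were not taken as pairs. Depth is known only for the listed genes.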

Other observations

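The genes whose library-to-library pattern was most like that of each member are given as a description. The measure was Pearson's r of log2(normalised count + 1) over the 8 libraries of an organ, after the mean of each genotype was subtracted, among protein-coding genes whose mean normalised count was 100 or more. The libraries and their depths are shared by all genes, so high values are common, and no test was made. For Ppara in liver the closest of 4566 genes were March6 (r = 0.997), Eif4g1 (r = 0.996) and Ulk2 (r = 0.995), and for Cpt1a they were Ktn1, Secisbp2l and Zc3h7b (r = 0.992 each). Cpt1a itself ranked 836 for Ppara, with r = 0.87. For Ppara in jejunum the closest of 1618 genes were Akap10 (r = 0.985), Phf3 (r = 0.984) and Fam210a (r = 0.983), and in ileum, of 3966 genes, Malrd1 (r = 0.979), Dennd5b (r = 0.978) and Kmt5b (r = 0.973). No gene was named for Ppara in more than 1 organ.

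Pdk4 in jejunum had a different set. Its closest genes were Arvcf (r = 0.960), Hspa1b, which encodes a stress-induced chaperone (r = 0.958), and Herpud1, a gene of the endoplasmic reticulum stress response (r = 0.939). Ppara ranked 207 for Pdk4, with r = 0.63.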
